A study of Mus musculus with 8 samples.

Results

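Transcripts of the translation initiation and elongation factors were compared between cortices of Nuak1 knockout (KO) and wild-type (WT) mouse embryos at E18.5, shortly before birth. Nuak1 is a kinase related to AMPK, and the KO is constitutive, so every cell of the embryo carries the deletion. The cortices came from 4 KO and 4 WT embryos on the C57Bl/6JRj background, 2 of the KO and 1 of the WT embryos were labelled male, and the sample labels place both genotypes in the same 3 litters, although the series description speaks of 4. The factor genes were the rows of the count table whose symbol starts with Eif1 to Eif6 or with Eef1 or Eef2, apart from the Y-linked paralog of Eif2s3x, with at least 80 counts over all libraries. This rule kept 61 of 63 matching rows, out of 21165 rows in all. The rows left out were Eif4ebp3, with 0 counts, and Eif4e1b, with 1 count, and the row nearest to the minimum on the inside was Eif4ebp1, with 198 counts. All 61 passed the filter on low counts that left 12699 genes to test. The rule reads symbols literally, so it also took in genes that are no translation factor in the strict sense. Eif2c1, Eif2c2 and Eif2c4 are older symbols of Argonaute genes, which act in silencing by small RNAs. Eef1e1 encodes a scaffold protein of the aminoacyl-tRNA synthetase complex. The row named Eif1ay carries a symbol that the reference lists as a synonym of the X-linked Eif1ax.

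Translation of an mRNA begins when the eIF4F complex, made of the cap-binding protein eIF4E, the helicase eIF4A and the scaffold eIF4G, recruits a small ribosomal subunit that carries eIF1, eIF1A, eIF3, eIF5 and the initiator tRNA bound to eIF2. The exchange factor eIF2B recharges eIF2 with GTP, and 4 kinases (Eif2ak1 to Eif2ak4) slow this step by phosphorylating eIF2 under stress. The eIF4E-binding proteins block eIF4F assembly until the kinase mTORC1 phosphorylates them. During elongation, eEF1A delivers aminoacyl-tRNAs and eEF2 moves the ribosome along the mRNA. In neurons this machinery also works in axons and dendrites, where local translation supports growth and plasticity.

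The mRNAs of many ribosomal proteins and elongation factors start with a run of pyrimidines (a terminal oligopyrimidine start), through which mTORC1 sets their translation. Start-site windows from RefSeq (GRCm38.p6) were matched for 49 of the 61 genes and searched on the sense strand for a C followed by at least 4 bases that are C or T. The windows of 6 genes to which the values below return are shown 5′ to 3′ with the match nearest to the annotated first base in capitals, read from its C to the last pyrimidine that follows.
Eef1a1 (chr9:78481705-78481734, minus strand): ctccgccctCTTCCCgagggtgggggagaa
Eif3f (chr7:108934405-108934434, plus strand): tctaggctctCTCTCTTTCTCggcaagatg
Eif2s3x (chrX:94212632-94212661, minus strand): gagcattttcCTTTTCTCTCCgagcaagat
Eef2 (chr10:81176621-81176650, plus strand): aaggccgggcgttgacgtcagcggtctctt
Eif3m (chr2:105017008-105017037, minus strand): cggtcggcgtgtttctggatcggagcgtct
Eef1e1 (chr13:38659009-38659038, minus strand): gtcctagctgtgcaggccccgcctccctag
In Eif3f and Eif2s3x the C of this match was the annotated first base, and in Eef1a1 it was 1 base before it. In each of the 3 the pyrimidines also extended further upstream, shown in lower case. The windows of Eef2, Eif3m and Eef1e1 held no such match within 5 bases of the annotated start. Among the 49 factor genes, 2 (4.08%) had the match at the first base and 14 (28.6%) within 5 bases of it. Among all 27025 genes with such windows the shares were 3.01% and 21.2%, and among 65 cytosolic ribosomal protein genes 23.1% and 47.7%. A match is a description of the letters at an annotated start, not of where transcription starts in this tissue.

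Libraries are named by genotype and by the running number of their column, as in KO library R1, since the columns carry no embryo, litter or sex. Library totals lay between 11027082 and 27014858 counts in KO and between 9643711 and 18940484 in WT. Nuak1 itself averaged 14.2 normalized counts in KO (SD 4.35) and 1204 in WT (SD 260, n = 4 per genotype), so each column followed its genotype label. To normalize, each count was multiplied by the mean effective library size and divided by that of its own library. KO library R1 stood apart in markers of meningeal fibroblasts, whose 9 genes summed to 10333 normalized counts, against 341 to 508 in the other KO libraries and 277 to 383 in the WT libraries. The same library was highest in endothelial markers (9 genes, 5905 against 3594 to 4517 in the other 7 libraries) and in microglial markers (6 genes, 908 against 444 to 640.2). The 6 red blood cell markers summed highest in KO library R2, at 4424. Their sum was 544 to 2892 in the other KO libraries and 512 to 1247 in WT. The 7 markers of projection neurons did not move one way: 3 had a positive log2 fold change, 1 was higher and 2 were lower at an unadjusted p under 0.05, and the median was -0.26. Their sum lay between 18984 and 20900.2 in KO and between 13590.3 and 19049 in WT. In such bulk tissue, fewer cells of a type and less RNA per cell cannot be told apart.

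The factor genes took nearly the same share of all counts in both genotypes, 3.16 ± 0.0149% in KO and 3.15 ± 0.0973% in WT (SD over 4 libraries). The difference between the means was smaller than the spread among the WT libraries. Most of this share came from few genes. Eef1a1 made up 34.1% of the factor counts, Eef2 12.4% and Eif4g2, a relative of eIF4G that lacks the part binding eIF4E, 9.96%, together 56.5%. Eef1a1 alone was 1.08 ± 0.0101% of all counts in KO and 1.07 ± 0.046% in WT (SD over 4 libraries).

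Levels of different genes were compared as CPM per kilobase of exon, for the 60 factor genes with a single position in the annotation. Exon length was the union of all annotated exon bases, and the order depends on it. Eif4a1 had 4334 such bases for 1221 coding bases and Eif4a2 5338 for 1227, whereas Eif3e had 1541 for 1338. How far this shifts the order, here and where a gene is called highest per length, was not tested. Eef1a1 was highest at 4319 on average over the 8 libraries, followed by Eef2 at 1268. These were the only factor genes above 1000 on that scale, and no library of one overlapped a library of the other. Next came Eef1g, a subunit of the exchange complex that recharges eEF1A, at 374, Eif3e, a subunit of eIF3, at 330.3, and Eif4g2 at 317. The helicase gene Eif4a1 lay at 290.3 and Eif3h at 286, a pair whose difference was smaller than the SD of Eif4a1 among KO libraries. Eif4a2 at 230.4 and Eef1b2 at 229 were likewise closer than their spread. At the low end stood Eif4ebp1 at 1.47, Eif4e3 at 1.26, Eif5a2 at 0.883 and Eif2ak2, the kinase activated by double-stranded RNA, at 0.856. Eef2k was left out of this order, since it had no single position in the annotation.

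**Figure D1:**
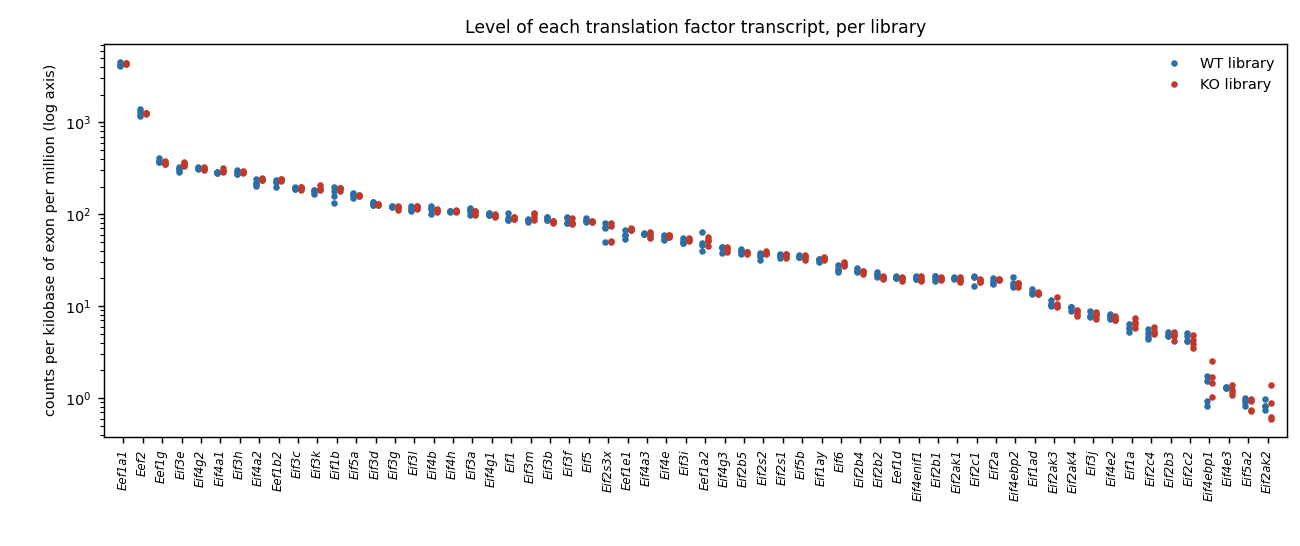
CPM per kilobase of exon (log axis) of 60 factor genes, ordered by their mean over the 8 libraries, with 1 point per library (WT blue, KO red). Eef1a1 averaged 4319 and Eef2 1268 at the top and Eif2ak2 0.856 at the bottom, and the points of both genotypes overlapped for all but 4 genes.

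The comparison of KO with WT asked whether loss of Nuak1 was accompanied by different transcript levels of the translation machinery. No factor gene passed an adjusted p of 0.05 in edgeR's quasi-likelihood test, against 0.0709% of all genes tested, and none passed it with DESeq2, against 0.551%. At an unadjusted p under 0.05, 4 of 61 factor genes (6.56%) were higher in KO, where 4.51% of all genes were, and 2 (3.28%) were lower, where 3.18% of all genes were. With DESeq2, 7 (11.5%) were higher, against 4.50% of all genes, and 2 (3.28%) were lower, against 2.70%, Eif4a2, Eif2s2 and Eif3k being added to those higher. The count of higher genes ranged from 3 (4.92%, against 2.98% to 3.30% of all genes, without KO library R3, WT library R1 or WT library R3) to 8 (13.1%, against 4.27%, without WT library R2) when a library was dropped. At the thresholds the study used (unadjusted p under 0.05 and a log2 fold change above 0.25 in size), 0 factor genes were called, against 4.25% of all genes.

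The fold changes were small. The median log2 fold change was -0.01 over the factor genes and -0.01 over all genes tested, and 28 of 61 (45.9%) were positive, against 45.6% of all genes. The log2 fold change was under 0.1 in size for 44 factor genes and under 0.2 for 60, and its median size was 0.06, against 0.08 over all genes. For 44 of 61 factor genes (72.1%) the whole 95% interval lay within 0.25 on either side of 0, which held for 36.5% of all genes. Factor genes were also more abundant, with a median of 2696 normalized counts against 469 over all genes tested. Counting error narrows with abundance, but its part in the narrower intervals was not tested. The median coefficient of variation over the 8 libraries was 5.57% for factor genes and 10.03% for all genes tested. It was lowest for Eif4h, a cofactor of eIF4A, at 1.58%.

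**Figure D2:**
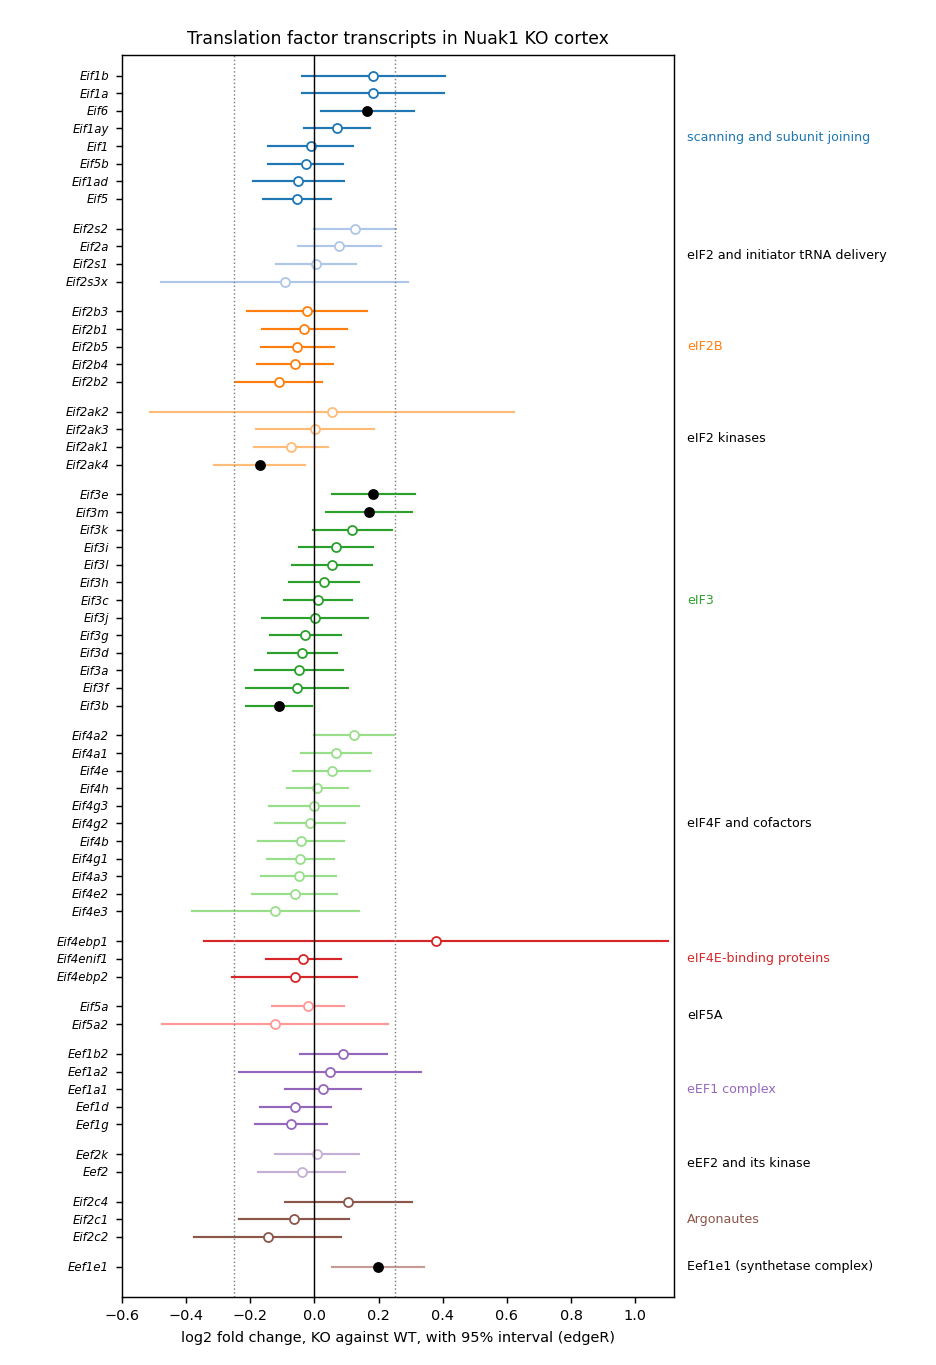
Log2 fold change of KO against WT with its 95% interval for each of the 61 factor genes, grouped by role, with dotted lines at 0.25 on either side of 0. Filled points mark the 6 genes with an unadjusted p under 0.05, and 44 intervals lie between the dotted lines.

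Among the 13 genes of eIF3, the large scaffold on the small ribosomal subunit, the median log2 fold change was 0.01 and 8 were positive. Eif3e and Eif3m were higher at an unadjusted p under 0.05 and Eif3b was lower. Eif3e, on chromosome 15 (43081586 to 43114282, NCBIM37), had 9244, 8412, 9435 and 8676 normalized counts in KO libraries R1 to R4 and 7928, 8361, 7281 and 7922 in WT libraries R1 to R4. Every KO library was above every WT library, with KO library R2 only just above WT library R2. The means were 8942 ± 478 in KO and 7873 ± 445 in WT (SD over 4 libraries), and the log2 fold change was 0.18 (SE 0.06, adjusted p = 0.526). Eif3m, on chromosome 2 (104839813 to 104857237), had 4461, 3742, 4262 and 3968 normalized counts in KO and 3665, 3769.9, 3487 and 3680.5 in WT. KO library R2 lay below WT library R2, and the other KO libraries lay above all WT libraries. The log2 fold change of Eif3m was 0.17 (SE 0.06, adjusted p = 0.569).

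Eif3k, a small subunit at the edge of the complex, had 3660.4, 3360.1, 3337 and 3282.2 normalized counts in KO and 3123, 3281.8, 2919.8 and 3235 in WT. The KO libraries were all above the WT libraries, but KO library R4 and WT library R2 were almost equal, and the log2 fold change was 0.12 (SE 0.06, adjusted p = 0.664), or 0.05 with the trend over gene length removed. Eif3b, the subunit that holds Eif3g and Eif3i, went the other way, with 3981, 4114, 4128 and 4076 normalized counts in KO and 4277, 4546, 4236 and 4547 in WT. All KO libraries were below all WT libraries, and the KO libraries were closer to each other than the WT libraries were, with means of 4075 ± 66.5 and 4401 ± 169 (SD over 4 libraries). The log2 fold change of Eif3b was -0.11 (SE 0.05, adjusted p = 0.631). In the 8 fits that each dropped 1 library, the unadjusted p stayed under 0.05 in 8 of 8 fits for Eif3e and Eif3m, and for Eif3b only in the 2 fits without WT library R1 or R3. When the subunits were divided, after their values had been seen, into the 8 of the structural core known as the octamer (a, c, e, f, h, k, l and m) and the other 5, the medians were 0.04 with 6 positive and -0.03 with 2 positive. Eif3f, whose annotated start carries the long pyrimidine run shown above, had a log2 fold change of -0.05 (SE 0.07).

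Over all factor genes, 3 (4.92%) had every KO library above every WT library, against 2.64% of all genes, and 1 (1.64%) had every KO library below, against 1.85%. The 3 were Eif3e, Eif3k and Eef1e1, and the 1 was Eif3b. With counts scaled to library totals only, 1 (Eif3k) was without overlap above and 2 (Eif3b and Eif2ak4) below. The share of all genes was not computed under that scaling, so these counts have no background to be read against.

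**Figure D3:**
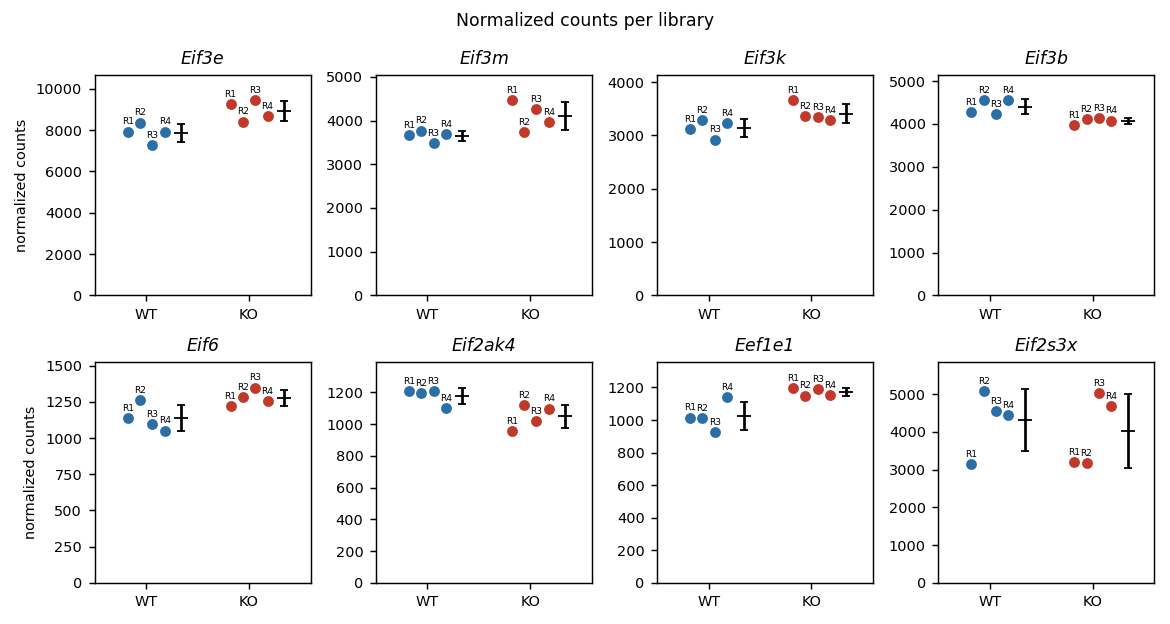
Normalized counts of 8 factor genes in each library, with the mean and SD of the 4 libraries of a genotype in black; each axis starts at 0 and points carry the running number of the library. The KO points lie above the WT points in Eif3e, Eif3k and Eef1e1 and below them in Eif3b, and Eif2s3x splits into a low and a high level in both genotypes.

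Among the 8 genes grouped by symbol under scanning and subunit joining, the median log2 fold change was 0.03 and 4 were positive. Eif6, which keeps the large ribosomal subunit from joining too early, was the only one with an unadjusted p under 0.05. It had 1221, 1283, 1348 and 1257 normalized counts in KO and 1139, 1264, 1097 and 1052 in WT. The groups overlapped, since WT library R2 lay above KO libraries R1 and R4. The log2 fold change of Eif6 was 0.17 (SE 0.07, adjusted p = 0.629), and its unadjusted p stayed under 0.05 in 4 of 8 fits with a library left out, but not without KO library R3 or WT library R1, R3 or R4. Eif1b, a paralog of the scanning factor Eif1 and the highest of these genes per length, had 2691, 2905, 2944 and 2916 normalized counts in KO and 2413, 2018, 2678 and 3007 in WT. KO libraries were close together and WT libraries were not, with WT library R4 the highest and WT library R2 the lowest of all 8. The log2 fold change was 0.18 (SE 0.10, adjusted p = 0.732), and it ranged from 0.09 without WT library R2 to 0.28, with an unadjusted p under 0.05, without WT library R4. With the trend over gene length removed it was 0.10. Eif1ay, the row of Eif1ax, had a log2 fold change of 0.07 (SE 0.05).

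Of the 4 genes of eIF2 and initiator tRNA delivery, 0 had an unadjusted p under 0.05 and the median log2 fold change was 0.04. Eif2s3x, which encodes the tRNA-binding gamma subunit of eIF2 and is known to escape X inactivation, varied most among the abundant factor genes, with a coefficient of variation of 20.5%. It had 3199, 3162, 5034 and 4689 normalized counts in KO and 3140.2, 5073, 4551 and 4447 in WT. KO libraries R1 and R2 and WT library R1 formed a low level and the other 5 libraries a high one. The means were 4021 ± 981 in KO and 4303 ± 822 in WT (SD over 4 libraries), and the log2 fold change was -0.09 (SE 0.17). The sexes were unequal between the genotypes by the labels, but the column names carry no sex, and its part in these values was not tested.

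All 5 genes of the exchange factor eIF2B had a negative log2 fold change, from -0.11 in Eif2b2 to -0.02 in Eif2b3, with a median of -0.05. None of the 5 had an unadjusted p under 0.05, and all 5 intervals lay within 0.25 on either side of 0. Eif2b5, the catalytic subunit and the highest of the 5 per length, had 2025 ± 53.0 normalized counts in KO and 2103 ± 103 in WT (SD over 4 libraries). Among the 4 eIF2 kinases, Eif2ak4 (GCN2), which responds to amino acid shortage, was lower at an unadjusted p under 0.05. It had 957, 1121, 1020.5 and 1098 normalized counts in KO and 1206, 1196, 1210.2 and 1101 in WT. WT library R4 lay within the KO range and the other WT libraries lay above it. The log2 fold change of Eif2ak4 was -0.17 (SE 0.06, adjusted p = 0.611). Its unadjusted p stayed under 0.05 in 3 of 8 fits with a library left out, those without KO library R2, KO library R4 or WT library R4. Eif2ak1, the highest of the kinases per length, had a log2 fold change of -0.07 (SE 0.05), and Eif2ak2 had too few counts for a narrow interval, at 0.06 (SE 0.26).

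The 11 genes grouped by symbol under eIF4F and its cofactors differed little. Their median log2 fold change was -0.01, with 4 positive, 10 intervals within 0.25 on either side of 0 and 0 genes with an unadjusted p under 0.05. Eif4g2, the highest of them per length, had a log2 fold change of -0.01 (SE 0.05), and the cap-binding Eif4e had 0.05 (SE 0.05). The helicases Eif4a1 and Eif4a2 had log2 fold changes of 0.07 (SE 0.05) and 0.12 (SE 0.06, adjusted p = 0.652). Their counts were nearly equal, and the log2 ratio of Eif4a1 to Eif4a2 was 0.00 ± 0.08 in KO and 0.06 ± 0.08 in WT (SD over 4 libraries). The repressor Eif4ebp1 had the largest positive log2 fold change of all factor genes, 0.38, but with an SE of 0.33, and it ranged from 0.17 without KO library R1 to 0.59 without WT library R2. Its normalized counts were 41.0, 16.7, 27.8 and 23.6 in KO and 24.7, 28.0, 13.2 and 15.2 in WT, so the ranges of KO and WT overlapped in part. Eif4ebp2, the main eIF4E-binding protein of the brain, had a log2 fold change of -0.06 (SE 0.09), and Eif4enif1, which carries eIF4E into the nucleus, had -0.03 (SE 0.05).

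The main elongation factors Eef1a1 and Eef2 were close to equal in both genotypes. Eef1a1 had 179612 ± 3299 normalized counts in KO and 176128 ± 8393 in WT (SD, n = 4 per genotype), giving a log2 fold change of 0.03 (SE 0.05) with a 95% interval from -0.09 to 0.15. Eef2 had a log2 fold change of -0.04 (SE 0.06, interval -0.18 to 0.10). Eef1a2, which takes over from Eef1a1 in mature neurons, had 1768 ± 172 normalized counts in KO and 1714 ± 361 in WT (SD, n = 4 per genotype), giving a log2 fold change of 0.05 (SE 0.13). Eif5a, the hypusine-containing factor that helps ribosomes past difficult peptide bonds, had -0.02 (SE 0.05), and its low paralog Eif5a2 had -0.12 (SE 0.16), ranging from -0.05 without KO library R2 to -0.19 without KO library R3. Of the genes that only share the symbol, Eef1e1 had 1198, 1149, 1192 and 1151 normalized counts in KO and 1015, 1013, 926 and 1138 in WT. No WT library reached the KO range, and WT library R4 came nearest. The means of Eef1e1 were 1173 ± 25.8 and 1023 ± 87.3 (SD over 4 libraries), and the log2 fold change was 0.20 (SE 0.07, adjusted p = 0.538). Its unadjusted p was under 0.05, and stayed so whichever of the 8 libraries was dropped, and with the trend over gene length removed the log2 fold change was 0.13. The Argonaute genes Eif2c1 and Eif2c2 had log2 fold changes of -0.06 (SE 0.08) and -0.15 (SE 0.10), and Eif2c4 had a positive one of 0.11 (SE 0.09). With 1 library dropped, Eif2c1 ranged from -0.02 to -0.13, the latter without WT library R4 and with an unadjusted p under 0.05. Eif2c2 ranged from -0.07 without KO library R4 to -0.21, and was -0.08 without WT library R3.

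Ratios within a library do not depend on scaling, and 4 of them were tested by a 2-sided exact permutation test over libraries, in which the smallest possible p is 0.0286. Eef1a1 exceeded Eef1a2 102-fold in KO and 104-fold in WT, a difference of -0.03 on the log2 scale (exact p = 0.914). The difference for Eif4a1 to Eif4a2 was -0.06 (exact p = 0.343, adjusted over the 4 ratios 0.610). For Eif5a to Eif5a2 the ratio was 90.3-fold in KO and 83.0-fold in WT, a log2 difference of 0.12 (exact p = 0.343, adjusted 0.610). The ratio of the repressor Eif4ebp2 to its target Eif4e differed by -0.11 (exact p = 0.457, adjusted 0.610). None of the 4 ratios differed beyond the spread between libraries, and their direction was not the same in every fit for Eef1a1 to Eef1a2.

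**Figure D4:**
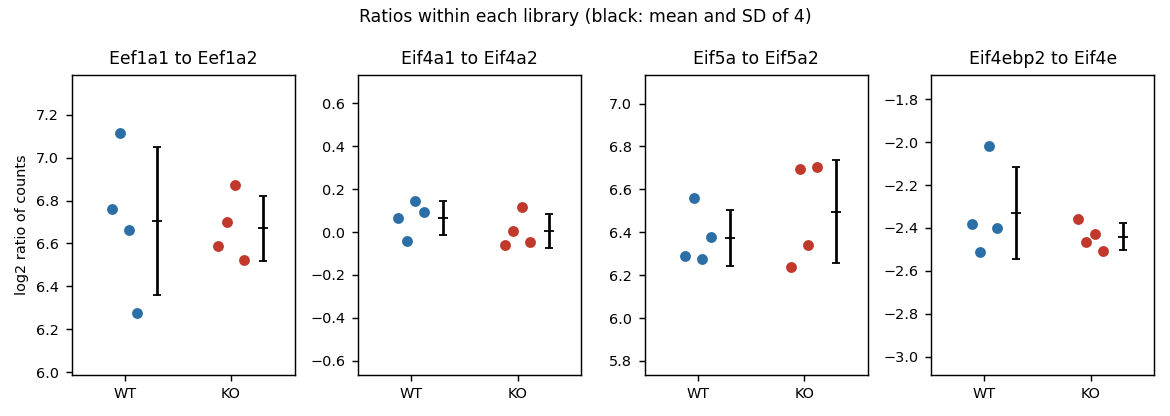
Log2 ratio of counts of 4 gene pairs within each library, with the mean and SD of the 4 libraries of a genotype in black; each axis spans the same log2 range. The KO and WT points overlap in all 4 pairs, and the differences between the means lie between -0.11 and 0.12.

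The rest of the translation pathway was read from the same fit. In the 78 cytosolic ribosomal protein genes tested, the median log2 fold change was 0.16, and 77 were positive, against 45.6% of all genes. At an unadjusted p under 0.05, 40 (51.3%) were higher in KO, where 4.51% of all genes were, and 0 were lower, where 3.18% were. In 13 of the 78, every KO library was above every WT library, against 2.64% of all genes. None of them passed an adjusted p of 0.05, while 37 more had an unadjusted p above 0.05 and a positive value. Rpl38 had the largest value, 0.31 (SE 0.09), and Rps2 was the only one below 0. The median log2 deviation of these genes from their mean over the 8 libraries was 0.211 in KO library R1 and 0.143 in KO library R3, and -0.0253 and -0.00710 in KO libraries R2 and R4. In WT libraries R1 to R4 it was -0.0657, -0.0333, -0.216 and -0.0122, so KO library R2 lay within the WT range and KO library R4 just above it. The count of 40 fell to 21 (26.9%, against 3.17% of all genes) without KO library R1. It fell to 20 (25.6%, against 3.22%) without KO library R3 and to 19 (24.4%, against 2.98%) without WT library R3. KO library R1 is also the one with the high meningeal, endothelial and microglial markers. Over the genotypes, 9 of 9 endothelial markers (median log2 fold change 0.24) and 6 of 6 microglial markers (median 0.12) were positive. Of the 9 meningeal fibroblast markers 5 were tested, and all 5 were positive (median 2.93), their list being high in KO library R1 only. Of the endothelial markers, 2 had every KO library above every WT library, against 2.64% of all genes. Elsewhere, 4 of 4 oligodendrocyte precursor markers were positive (median 0.07), but only 1 of 8 progenitor markers (median -0.11) and 0 of 7 interneuron markers (median -0.15). The part of any of these cells in the result was not tested. Without KO library R1 the median of the ribosomal protein genes was 0.13 and 74 of 78 were positive, while the median of the factor genes was 0.01. With the trend over gene length removed, the median of the ribosomal protein genes was 0.12 and 68 of 78 were positive. In that setting 34 (43.6%) were higher at an unadjusted p under 0.05, against 4.48% of all genes. The per-library median log2 deviations of the 61 factor genes stayed between -0.02 and 0.04.

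**Figure D5:**
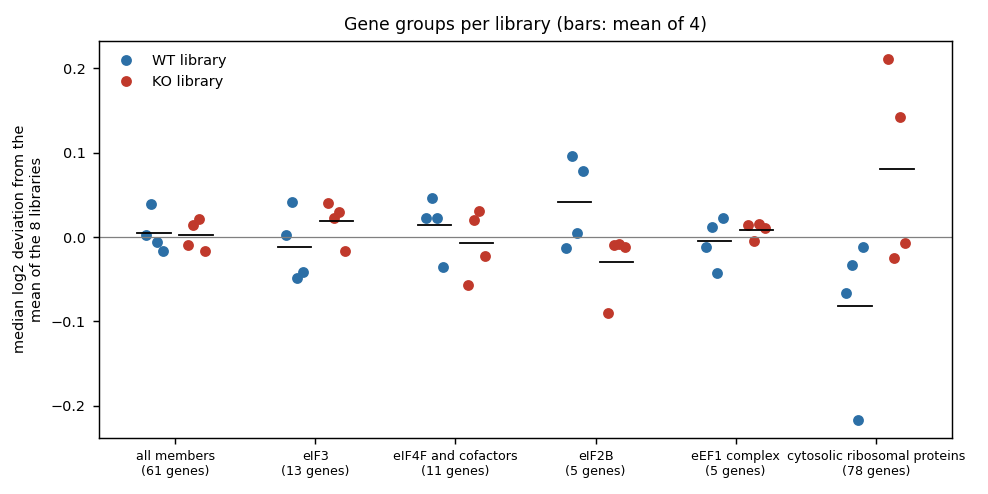
Median log2 deviation from the mean of the 8 libraries for all 61 factor genes, for 4 role groups and for 78 cytosolic ribosomal protein genes, with 1 point per library (WT blue, KO red) and a bar at the mean of each genotype. The medians of all factor genes lie between -0.02 and 0.04, whereas those of the ribosomal protein genes span -0.22 to 0.21, with KO library R2 within the WT range and KO library R4 just above it.

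The other lists held no gene with an adjusted p under 0.05. At an unadjusted p under 0.05, 4.51% of all genes tested were higher in KO and 3.18% lower. Termination and recycling factors had 0 of 4 genes at that threshold, and regulators around mTORC1 had 0 of the 11 tested out of 12 listed, Deptor not being tested. The eIF4E kinases and partners had 0 of 5, and the integrated stress response had 0 of the 16 tested out of 20 listed. Atf3, Trib3, Slc7a11 and Nupr1 were listed but not among the genes tested. Mtor itself had a log2 fold change of -0.09 (SE 0.06), and Atf4, whose translation rises when eIF2 is phosphorylated, had 0.00 (SE 0.06). Among 5 genes of poly(A)-binding proteins and partners, Pabpc1 had -0.04 (SE 0.05). Only Paip2b, an inhibitor of poly(A)-binding protein, had an unadjusted p under 0.05, with a log2 fold change of -0.17 (SE 0.06, adjusted p = 0.554). Paip2b had 805, 794, 838 and 867 normalized counts in KO and 958, 967, 877 and 921 in WT, without overlap. Among 6 initiation helpers, Mcts1, which works with Denr in reinitiation, was higher at an unadjusted p under 0.05 (log2 fold change 0.16, SE 0.06, adjusted p = 0.629).

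Of 22 genes of aminoacyl-tRNA synthetases and their scaffold proteins, 2 were higher in KO at an unadjusted p under 0.05 and 0 were lower. Of all genes tested, 4.51% were higher and 3.18% lower at that threshold. The median log2 fold change of the 22 was -0.02. Farsb, a subunit of the phenylalanyl-tRNA synthetase, had 3646, 3454, 3662 and 3536 normalized counts in KO and 3054, 3297, 2977 and 3447 in WT. The KO libraries were all above the WT libraries, with KO library R2 just above WT library R4, and the log2 fold change was 0.16 (SE 0.06, adjusted p = 0.554). Aimp1, a scaffold protein of the synthetase complex like Eef1e1, had 0.14 (SE 0.06, adjusted p = 0.646). Of 8 mitochondrial translation factors, Mtif2, the mitochondrial initiation factor, was lower at an unadjusted p under 0.05 (log2 fold change -0.19, SE 0.07, adjusted p = 0.621).

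Reads of 16 of 60 factor genes searched could also have come from a near-identical copy elsewhere in the genome, at 95% identity over at least 50% of the coding bases. Among the genes named here, Eif1 had 15 such copies, Eef1a1 had 7, and Eef1g and Eif4a1 had 3 each. Eif3e, Eif3h, Eif3m, Eif2s2, Eif2s3x, Eef2, Eif4e and Eif5a had 1 each. The levels of all these genes are therefore uncertain. Eef1e1, Eif3b, Eif3k, Eif6 and Eif2ak4 had 0. Exons of several factor genes also overlapped a gene on the opposite strand, for example over 32.7% of the exon bases in Eif3d, 15.9% in Eif5b, 8.6% in Eif2ak1 and 5.1% in Eif6, and without a stated strand setting such reads cannot be told apart.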

How the data were processed

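RNA of 4 KO and 4 WT embryonic cortices was sequenced after poly(A) selection with a stranded kit. The authors trimmed reads with Cutadapt 1.13, aligned them with TopHat2 2.0.13 (genome mm9), handled alignments with SAMtools 0.1.19, and counted reads per gene with HTSeq-count, whose strand setting is not given in the sources used here. They deposited whole-number counts without normalization. Reads that fit several places may be lost at that step. Columns name genotype and a running number only.

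After TMM normalization and filterByExpr, the quasi-likelihood test of edgeR 4.0.16 (R 4.3.3) was applied, with Benjamini-Hochberg adjustment over 12699 genes. The SE is the fold change divided by the square root of F. DESeq2 1.42.0 was an alternative, with other scalings, filters on low counts, removal of the length trend and each library left out. Libraries of a genotype differed by more than sampling noise (chi-square per degree of freedom at least 5.92). P-values measure the spread between these embryos. The fit was tested on simulated data.

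Members and lists were chosen with earlier results of these data known. Members named are those with an unadjusted p under 0.05, without overlap, highest per length in their role, among the 3 largest log2 fold changes in each direction, in a ratio, X-linked or nearest to 80 counts. From the other lists, genes with an unadjusted p under 0.05 are named, except that ribosomal proteins are given by counts, and Atf4, Mtor and Pabpc1. Eif3f, Eif3h, Eif3d, Eif5b, Eif1, Eef1g, Eif4h, Eef1b2, Eif2s2, Eif2b2, Eif2b3, Eif2ak2, Eif2c4, Eif4e3, Rpl38 and Rps2 were named for their level, sequence or place in a range after values were seen. Positions and exon lengths come from a gene annotation of NCBIM37 (the mm9 assembly), and start-site windows from RefSeq on GRCm38.p6. Ratios used 0.5 counts added to each gene.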

Additional observations from a re-analysis of the deposited data

Results flagged for a closer look

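In 86 groups of 4 libraries, 5 values stood apart from the other 3 of their genotype by Dixon's criterion, where about 4.3 would be reached by chance at 1 in 20. Eif1b had 2690.5 normalized counts in KO library R1, below the other KO libraries. Eif2ak4 had 1101 and Eif2c1 had 2258 normalized counts in WT library R4, each below the other WT libraries. The median log2 deviation of the 3 Argonaute genes was -0.22 in WT library R4, and that of the 5 eIF2B genes was -0.0904 in KO library R1, in both cases the lowest of the genotype. For eIF2B, the other KO libraries lay near -0.01 and the WT libraries between -0.01 and 0.10.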

How the results depend on the processing

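Counts of members at an unadjusted p under 0.05 depended on the setting. The count higher in KO was 7 with DESeq2 (4.50% of all genes) and 7 with at least 10 counts in every library (5.0% of all genes), against 4 (4.51%), and 3 to 8 when each library was left out, with 8 without WT library R2 (4.27%) and 7 without WT library R4 (7.05%). The count lower in KO was 1 with no filter on low counts (2.33% of all genes), against 2 (3.18%), and 0 to 2 when each library was left out, with 0 without KO library R1, KO library R3 or WT library R2 and 1 without KO library R2, KO library R4, WT library R1 or WT library R3. With library totals, members without overlap were 1 higher and 2 lower, and the share of all genes was not computed under that scaling. No member passed an adjusted p of 0.05 in any of the 14 alternatives. The study's thresholds were passed by 0 members except 2 of 61 (Eif1b and Eef1e1) without WT library R4. In that fit 6.57% of all genes passed them, against 4.25% in the main fit. Eef1e1, Eif3e and Eif3m kept an unadjusted p under 0.05 without each of the 8 libraries (p 0.00120 to 0.0347, 0.00562 to 0.0370 and 0.00369 to 0.0489). Eif6 did in 4 of 8 (up to 0.0953, lost without KO library R3 or WT library R1, R3 or R4), Eif2ak4 in 3 of 8 (up to 0.0777, kept without KO library R2, KO library R4 or WT library R4) and Eif3b in 2 of 8 (up to 0.0974, kept without WT library R1 or R3). The cause was not tested.

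With the length trend removed, Eif4g2 turned to 0.0159, and Eif3k (0.0487), Eef1e1 (0.128) and Eif1b (0.104) were over 1.5 times smaller, as were Eif2c1 (-0.0328) and Eif4enif1 (-0.0101). With a library left out, ranges of log2 fold changes that crossed 0 were -0.0493 to 0.20 for Eef1a2, -0.0713 to 0.00473 for Eef2, -0.220 to 0.0173 for Eif2s3x, -0.0975 to 0.0232 for Eif4ebp2, -0.0497 to 0.00130 for Eif4enif1, -0.0330 to 0.0112 for Eif4g2 and -0.0506 to 0.00915 for Eif5a. Medians ranged from -0.0232 to 0.0112 for all members, -0.0411 to 0.0427 for the eEF1 complex and 0.0190 to 0.0694 for scanning factors, and the Eef1a1 to Eef1a2 difference from -0.176 to 0.105. Of the values recomputed, 628 were labelled the same, 22 moved and 13 changed sign. For the fold change of a gene, this label asked only for the same sign and the same call at an adjusted p of 0.05. As no member passed that call in any setting, only a change of sign could register, and the tally does not measure how far fold changes shifted. The ribosomal protein counts without a library or with the length trend removed were chosen after seeing the data. No paired analysis was possible because litter, embryo and sex are not in the column names, and the block by litter was not run.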
